A study of Sus scrofa with 20 samples.

Results

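The genes described here encode neuronal ion channels and ionotropic receptors, the proteins that carry the electrical signals of nerve cells. They were chosen by symbol, as every row whose pig gene symbol carries a prefix of the potassium, calcium, sodium or HCN channels or of the GABA-A, AMPA, kainate, NMDA, glycine or nicotinic receptors, with at least 100 raw counts summed over the 20 libraries. Of 25880 gene rows, 14857 were matched to a symbol, 179 of these symbols carried one of the prefixes, and 76 passed the count minimum. One of the 76, GRINA, encodes an NMDA receptor-associated membrane protein and no receptor subunit, which leaves 75 subunits and auxiliary proteins. The count sum chose the members, so their levels are given as a description without a test. The differences between breeds and sexes were not part of the rule.

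The study sequenced messenger RNA of the hypothalamus from 20 pigs at 2 months of age, with 5 crossbred (Iberian x Large White) males, 5 crossbred females, 5 Iberian males and 5 Iberian females. The labels name no treatment, diet or induced mutation. The breed contrast sets crossbred against Iberian animals, and the sex contrast sets males against females. The labels give each library as its own sample but no litter or sire, so p-values measure the spread between these samples.

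An ion channel opens on a voltage change or on binding a ligand and lets selected ions cross the membrane. Sodium and calcium channels drive action potentials and transmitter release, potassium channels and HCN pacemaker channels set resting potential and firing rhythm, GABA-A and glycine receptors carry inhibition, and AMPA, kainate and NMDA receptors carry glutamate excitation. In the hypothalamus such channels shape the firing of the neurons that control feeding, growth, reproduction and temperature. Auxiliary subunits form no pore but change how many channels reach the membrane and how fast they open and close.

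Reads assigned to genes were few, at 1430138 to 2384615 counts per library, or 4.04 to 4.62% of all counted entries. The members took 0.175 to 0.277% of the gene counts of a library. The counts of the mitochondrial gene ND6, which lies on the opposite strand to COX1, were 19.8 to 141 times those of COX1. The labels name no strand marking for the library kit and the sources used here give no strand option for the counting, so the strand from which a gene's counts came is uncertain for every gene below. A neuron marker list was present in all groups, with 9 of 10 genes matched and summed levels of 609 to 854 CPM (counts scaled to the TMM-adjusted library size). The share of alignments set aside for low quality was 5.33 to 5.92% in 7 libraries, which are all 5 Iberian females and Iberian males 2 and 3, and 2.73 to 3.88% in the other 13. This share therefore cannot be told apart from breed among the females. In whole tissue, fewer cells of a type and less RNA per cell cannot be told apart.

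Counts were concentrated in a handful of members. The 76 genes held 95627 counts over the 20 libraries, and CHRNE, CACNB3 and KCNAB2 held 52.2% of them. CHRNE alone, the epsilon subunit of the nicotinic acetylcholine receptor known from adult muscle, had 24098 counts, or 25.2%. CACNB3, a beta subunit that brings calcium channel pores to the membrane, had 14088 counts. KCNAB2, a cytoplasmic beta subunit of voltage-gated potassium channels, had 11733 counts. The pacemaker channel HCN2 followed with 5531 counts and the voltage-gated potassium channel KCNH3 with 3646. In all 12 members had a sum of 1000 or more, and the median sum was 273.

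The name neuronal fitted only some of the best counted genes. Besides CHRNE, the members included CACNA1S, the calcium channel pore of skeletal muscle, with 104 counts, and CACNA1F, known from the retina. Genes known as widespread in neurons were among the 103 matching symbols below the minimum, such as the NMDA receptor subunits GRIN2B with 62 counts and GRIN2A with 14, the sodium channel SCN1A with 40, and the potassium channels KCNA1 with 55 and KCNA2 with 51. None of the 4 glycine receptor symbols reached 100, and the highest of them, GLRB, had 80. Count sums depend on transcript length, for which no value was used here, so they describe how well each gene was measured and not how strongly genes were expressed relative to each other. Just inside the minimum lay CACNA1S with 104 counts, GABRQ with 106 and SCN3A with 106. Just outside it lay the potassium channels KCNK4 with 97 and KCNK10 with 90.

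**Figure D1:**
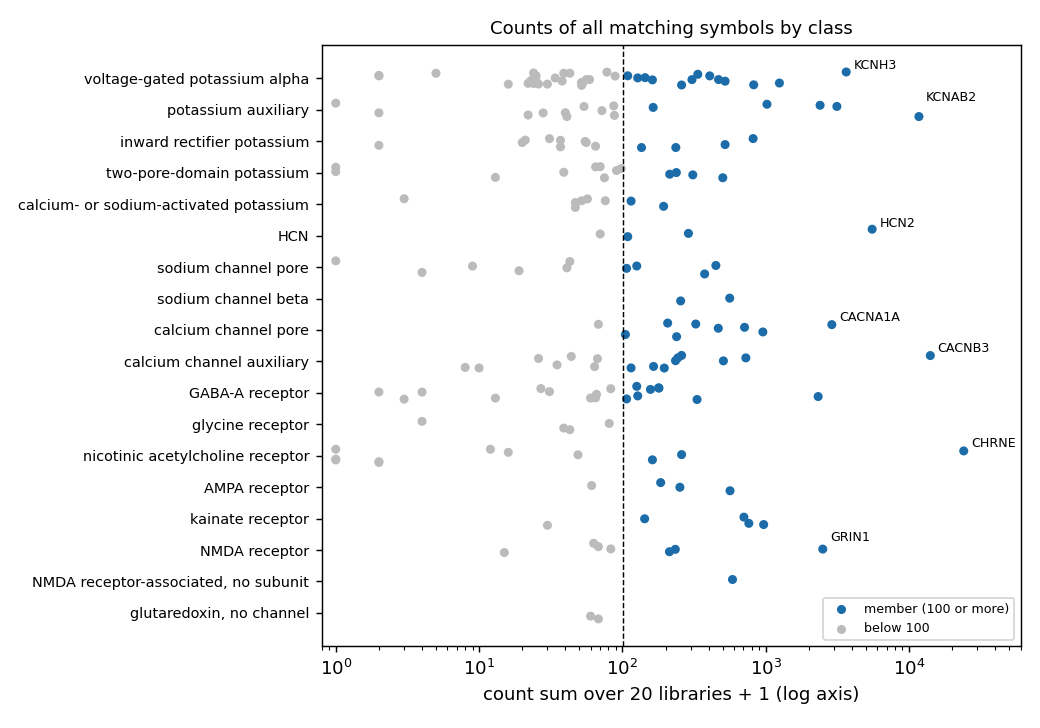
Count sum over the 20 libraries, plus 1, on a log axis for all 179 matching symbols, with 1 row per channel class. Blue points are the 76 members, grey points the 103 symbols below 100 counts (dashed line), and some of the best counted genes are labelled. CHRNE, CACNB3 and KCNAB2 lie far to the right of their own classes.

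The classes passed the minimum unevenly. Calcium channels were well covered, with 8 of 9 pore subunits and 9 of 16 auxiliary subunits. Among potassium channels, 13 of 37 voltage-gated alpha subunits, 5 of 15 auxiliary proteins, 4 of 13 inward rectifiers, 4 of 13 tandem pore domain channels and 2 of 8 channels gated by calcium or sodium passed. HCN channels passed with 3 of 4 genes, sodium channel pores with 4 of 10 and the listed sodium channel beta subunits with 2 of 2. Of the receptors, 8 of 18 GABA-A, 3 of 11 nicotinic, 3 of 4 AMPA, 4 of 5 kainate and 3 of 7 NMDA receptor subunits passed.

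Like many genes at large, part of the members lie on or beside another gene, which matters where strand is not settled. Of the 71 members with a position in the RefSeq annotation of Sscrofa11.1, 25 (35.2%) overlapped another gene and 37 (52.1%) overlapped one or lay within 1000 bases of one. A close or overlapping gene was present for 9 of the 11 placed members with 1000 or more counts, or 81.8%, and for 28 of the 60 with fewer, or 46.7%. Reads of such a pair could not be separated by strand. CHRNE, at 51999504 to 52016592 on chromosome 12, overlapped the kinase gene MINK1, which had 1291 counts. CACNB3, at 14875524 to 14888224 on chromosome 5, lay 727 bases from the helicase gene DDX23, which had 32768 counts. HCN2, at 77708159 to 77730881 on chromosome 2, lay 60 bases from POLRMT, the mitochondrial RNA polymerase, which had 40834 counts. Among tested genes with a position, 41.8% of the members (23 of 55) overlapped another gene, against 44.8% of all genes (2496 of 5576). Overlapping or lying within 1000 bases applied to 33 of these 55 members, a smaller share than the 65.5% of all such genes (3651 of 5576).

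The best counted members were also the most even across libraries. CHRNE had 613.6, 668.5, 624.1, 752.0 and 643.7 CPM in crossbred males and 572.4, 577.1, 609.4, 682.3 and 655.0 CPM in crossbred females. In Iberian males it had 580.7, 620.3, 651.4, 661.9 and 516.0 CPM, and in Iberian females 681.7, 595.8, 654.4, 603.8 and 630.6 CPM. All 4 groups overlapped. CACNB3 ranged from 276.6 to 430.5 CPM over the 20 libraries. The within-group SD on the log2 scale was 0.12 for CHRNE and 0.15 for CACNB3. It was widest for KCNK9, a tandem pore domain leak channel, at 0.71, and for GABRG1, the gamma 1 subunit of GABA-A receptors, at 0.69. The median over 59 tested members was 0.41, against 0.35 over all 7090 genes tested.

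The leading genes of the other classes had lower levels, given here for each gene over the 20 libraries and not for comparison between genes. KCNH3 averaged 94.9 CPM (50.4 to 113.6), KCNAB3, a potassium channel beta subunit, 81.7 CPM (63.7 to 108.5), and CACNA1A, the P/Q-type pore that triggers transmitter release, 77.0 CPM (57.8 to 144.1). GRIN1, the obligatory NMDA receptor subunit, averaged 66.7 CPM (49.7 to 114.7). GRIK3, a kainate receptor subunit, averaged 25.3 CPM (14.7 to 33.9), KCNJ3, an inward rectifier opened by G proteins, 21.2 CPM (13.2 to 28.6), and the AMPA receptor subunit GRIA1 14.8 CPM (11.14 to 21.96). The sodium channel beta subunit SCN2B averaged 14.7 CPM (9.53 to 19.5), the leak channel KCNK3 13.2 CPM (6.97 to 19.9) and the sodium channel SCN9A 11.8 CPM (3.10 to 19.2). The minima of KCNH3, GRIK3, KCNJ3, KCNK3 and SCN9A and the maxima of CACNA1A and GRIN1 came from the same animal, Iberian male 5.

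Iberian male 5 stood apart from the other 19 libraries. It had the lowest level of 20 of the 59 tested members (33.9%) and the highest of 10 (16.9%), while over all tested genes it was lowest for 20.4% and highest for 23.6%. KCNK9 had 0.775 CPM there, from 1 count, against 3.39 to 15.2 CPM in the other libraries. KCNAB2 had 135.6 CPM, against 266.6 to 356.8 CPM elsewhere, and KCNH3 50.4 CPM, against 77.8 to 113.6 CPM. These genes were low in that library, with no overlap with any other. CACNA1A was high there at 144.1 CPM, against 57.8 to 96.3 CPM elsewhere, and GRIN1 at 114.7 CPM, against 49.7 to 75.9 CPM. GRINA had 38.0 CPM, against 7.74 to 22.04 CPM. The same library had the lowest share of counts on members, 0.175%, and the highest ND6 to COX1 ratio, 141. Its summed anterior pituitary marker level, without the TMM factor, was 285.5 CPM, where the other 3 groups reached at most 3.75 CPM. Of these markers 5 of 8 were matched and none was at 0 in all libraries. The part of these features in the member values was not tested, so results that rest on this library are given with and without it.

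**Figure D2:**
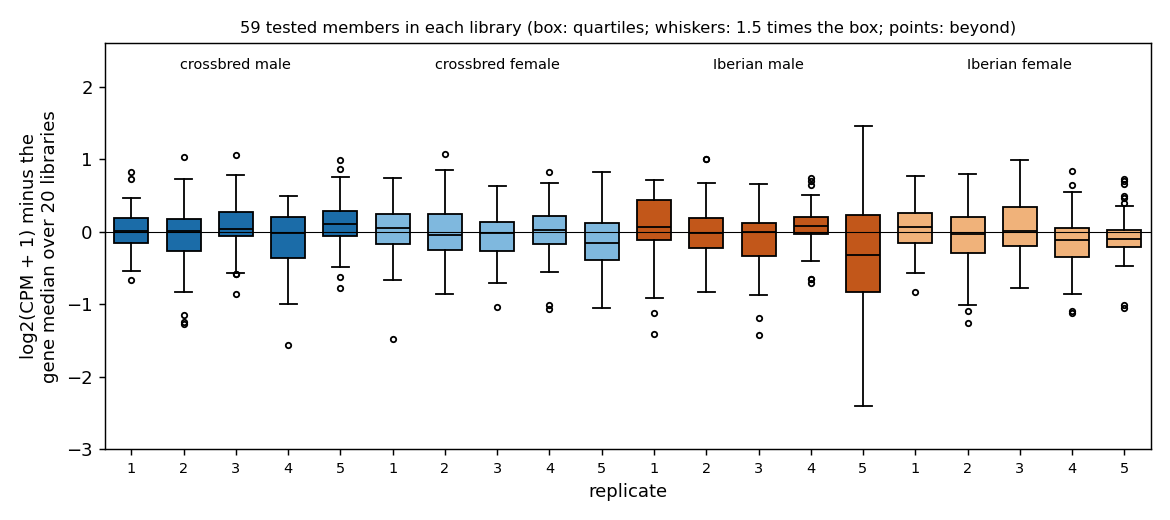
Deviation of the 59 tested members in each library, as log2(CPM + 1) minus the gene's median over the 20 libraries, by group and replicate. Boxes span the quartiles with the median as a line, whiskers reach 1.5 times the box and open points lie beyond. Iberian male 5 has the lowest median and the widest spread.

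The breed comparison asked whether channel and receptor genes differed between crossbred and Iberian animals. It found 0 of 59 tested members past a Benjamini-Hochberg adjusted p of 0.05 in edgeR's quasi-likelihood test, where 0.226% of all 7090 tested genes passed. DESeq2 and limma voom (with sample quality weights throughout) also called 0 members. In all contrasts, a member to which DESeq2 gave no adjusted p was counted as not called. At an unadjusted p under 0.05 there were 3 members (5.08%), against 7.48% of all genes. The 59 tested members were those that passed the low count filter. The other 17, which include the GABA-A subunit genes GABRA3 and GABRA5, had 1.52 to 4.96 CPM on average per group, and 0 of the 76 were called when the filter was dropped. The fitted log2 differences ran from -0.52 to 0.58, with 32 of 59 above 0 (54.2%, against 49.1% of all genes). Their median was 0.01, against -0.004 over all genes. For 56 of the 59, the 95% interval of the difference lay within a 2-fold change in either direction. The exceptions were KCNG1, KCNK5 and GABRG1.

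KCNIP4, KCNG1 and HCN2 had the smallest p-values of the breed contrast. KCNIP4 encodes a calcium-binding protein that attaches to A-type potassium channels and alters their inactivation. It averaged 23.6 ± 6.23 CPM in crossbred and 30.0 ± 7.50 CPM in Iberian animals (SD, n = 10 each), and 8 of 10 crossbred animals lay below the Iberian median. The log2 difference was -0.34 (SE 0.14, edgeR adjusted p = 0.553). KCNG1, a subunit that is silent alone and modifies delayed rectifier potassium channels, averaged 9.38 ± 3.64 CPM in crossbred and 6.31 ± 2.89 CPM in Iberian animals, which is 0.58 higher on the log2 scale (SE 0.24) with an edgeR adjusted p of 0.558. Of the crossbred animals, 8 of 10 lay above the Iberian median. The ranges of both genes overlapped between the breeds.

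HCN2 had 153.3, 154.6, 152.4, 147.2 and 172.1 CPM in crossbred males and 136.9, 156.5, 160.0, 148.3 and 171.9 CPM in crossbred females. Iberian males had 147.2, 121.7, 160.8, 141.8 and 96.1 CPM, and Iberian females 138.6, 154.7, 149.2, 124.3 and 111.1 CPM. Of the crossbred animals, 9 of 10 lay above the Iberian median, while the ranges overlapped. The lowest value was that of Iberian male 5. The log2 difference of HCN2 was 0.20 (SE 0.09, 95% interval 0.03 to 0.38, edgeR adjusted p = 0.564). Without Iberian male 5 it was 0.16 (edgeR adjusted p = 0.487).

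The next members by p-value did not pass either. KCNK5, an acid-sensitive leak channel, had a log2 difference of -0.52, which was -0.35 without Iberian male 5, the library with its highest value of 15.5 CPM. KCNAB1, which speeds inactivation of voltage-gated potassium channels, had -0.23, the T-type calcium channel CACNA1I 0.45, GABRG1 -0.51 and KCNH3 0.17, which was 0.10 without Iberian male 5. GRIN2D, an NMDA receptor subunit with slow kinetics, had 0.37 and CACNA1F 0.34. Their edgeR adjusted p-values lay between 0.666 and 0.760. With a term for low-quality alignments, whose share was high in 7 of 10 Iberian and 0 of 10 crossbred libraries, several breed differences moved by over 1.5 times. GABRG1 was then -0.03, CACNA1F 0.03, CACNA1I 0.24 and KCNIP4 -0.18, while KCNG1 was 0.31. KCNK5 was -1.05, KCNAB1 -0.35 and KCNH3 0.30 with the term. GABRG1 was also -0.31 without Iberian male 2. With limma voom KCNK5 was -0.28 and KCNH3 0.09.

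By class, the breed differences pointed in both directions. Of the tested genes, 7 of 10 voltage-gated potassium alpha subunits, 6 of 7 calcium channel auxiliary subunits and 4 of 7 calcium channel pores had fitted differences above 0. Differences lay below 0 for 3 of 4 GABA-A receptor subunits, 3 of 4 tandem pore domain channels and all 3 AMPA receptor subunits. The AMPA median was -0.27, but GRIA1 was at -0.006, and 1 of the 3 lay above 0 within females and 1 within males. None of these genes passed the test, so the directions are descriptive. The class counts over both sexes were the same with RLE scaling and with DESeq2, while limma voom put 6 of 7 calcium channel pores above 0 and 0 of 4 GABA-A receptor subunits. The summed level of the 3 HCN members was 166.0 ± 11.4 CPM in crossbred males and 163.3 ± 12.9 CPM in crossbred females, against 144.9 ± 22.4 CPM in Iberian males and 148.3 ± 21.6 CPM in Iberian females (SD, n = 5 each). Most of that sum was HCN2.

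**Figure D3:**
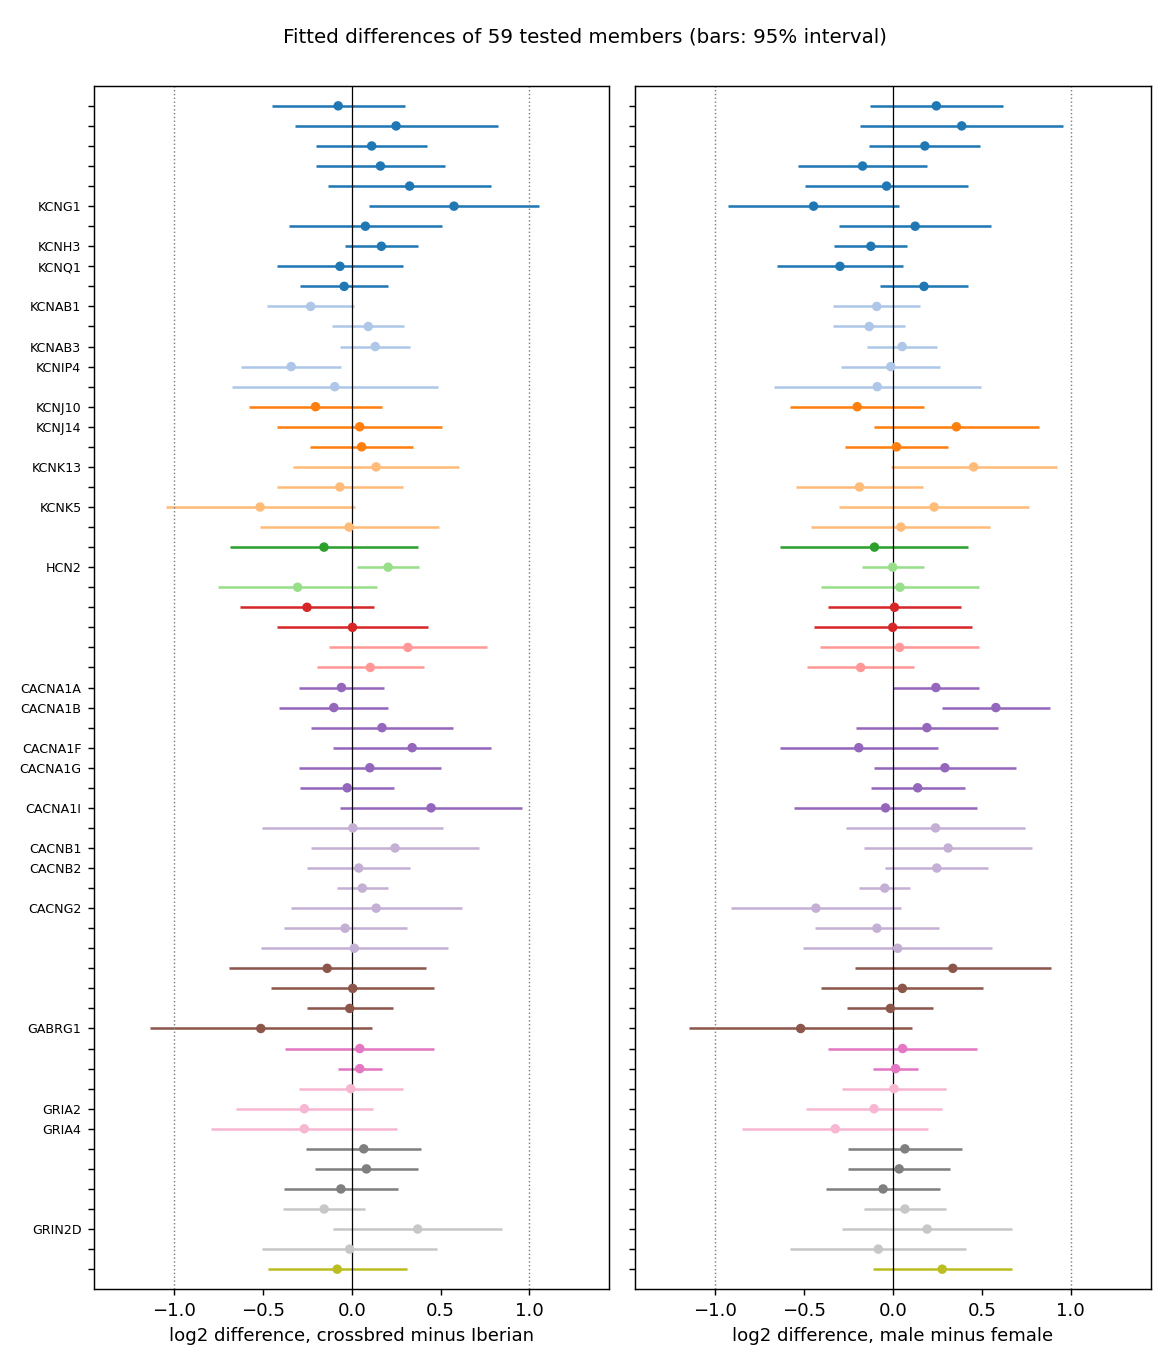
Fitted log2 differences of the 59 tested members for breed (crossbred minus Iberian) and for sex (male minus female), ordered and coloured by channel class, with gene names on the rows of members named for a contrast in the text. Points are the estimates and bars the 95% intervals. No member passed an adjusted p of 0.05 in either contrast, and the estimates spread to both sides of 0 in most classes.

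The breed comparison was also made within each sex. Among males, 0 of 59 members passed with edgeR, where 0.0282% of all genes did, and 4 had an unadjusted p under 0.05 (6.78%, against 10.7% of all genes). DESeq2 called 1 member, KCNIP4, with an adjusted p of 0.0482, among 17 genes called (0.504% of the 3371 genes to which it gave an adjusted p). With limma voom 0 members passed in males. Among females 0 members passed with edgeR, as did 0% of all genes, and 2 had an unadjusted p under 0.05 (3.39%, against 5.53%). DESeq2 and limma voom called 0 members in females. Intervals were wider than for both sexes together, and 47 of 59 lay within 2-fold in males and 47 of 59 in females.

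KCNIP4 was the member with the smallest p among males. Crossbred males had 19.6, 14.8, 25.8, 16.9 and 23.1 CPM, and Iberian males 39.7, 43.8, 31.9, 28.7 and 27.9 CPM. All 5 crossbred males lay below all 5 Iberian males. Crossbred females had 27.1, 33.5, 27.8, 30.1 and 17.6 CPM, and Iberian females 27.01, 26.8, 19.1, 33.4 and 22.03 CPM. The female groups overlapped over most of their range. In males the log2 difference was -0.77 (SE 0.19, 95% interval -1.17 to -0.38, edgeR adjusted p = 0.167), and in females 0.09 (SE 0.20, edgeR adjusted p = 0.998). KCNIP4 was the only member with groups that did not overlap and crossbred males lower, a pattern found in 1.17% of all tested genes. Without Iberian male 5 the male difference was -0.82 (edgeR adjusted p = 0.0622). Among the libraries with a low share of low-quality alignments, which keep 3 Iberian males, it was -0.67 (edgeR adjusted p = 0.297). Oligodendrocyte markers, with 6 of 7 matched and none at 0 throughout, were summed without the TMM factor. They reached 1628 to 1995 CPM in crossbred males and 1199 to 1542 CPM in Iberian males, which did not overlap on this scale. Their overlap on the scale of the members was not tested. In females they summed to 1494 to 2147 CPM in crossbred and 1383 to 1774 CPM in Iberian animals. Oligodendrocyte precursor markers, with 4 of 4 matched and none at 0 throughout, summed to 19.3 to 25.25 CPM in crossbred males and 24.2 to 26.8 CPM in Iberian males, and to 16.7 to 25.2 CPM in crossbred females and 22.9 to 31.4 CPM in Iberian females. The part of these cell types in the breed differences of the members was not tested.

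The difference of KCNIP4 between the sexes in its breed contrast was tested as an interaction. It was -0.87 on the log2 scale (SE 0.28, 95% interval -1.43 to -0.30, edgeR adjusted p = 0.479), and did not pass. KCNIP4 spans 15211916 to 16346358 on chromosome 8, and PACRGL, a gene with 14334 counts, lies within that span. PACRGL had a breed difference in males of -0.14 (edgeR adjusted p = 0.610) and an interaction of -0.01.

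CACNB1, the calcium channel beta subunit known from skeletal muscle and also present in brain, had the next smallest p among males. It had 9.33, 11.8, 12.1, 3.11 and 9.59 CPM in crossbred males and 4.76, 2.84, 5.31, 6.43 and 6.20 CPM in Iberian males. The crossbred females had 5.20, 4.94, 4.91, 4.47 and 5.02 CPM and the Iberian females 3.55, 7.23, 9.57, 4.35 and 6.22 CPM. Among crossbred males 4 of 5 lay above every Iberian male, while the remaining one, replicate 4, lay below all but 1 of them. The log2 difference was 0.83 in males (SE 0.31, edgeR adjusted p = 0.314) and -0.34 in females. The interaction was 1.16 (SE 0.46, 95% interval 0.22 to 2.10, edgeR adjusted p = 0.567). In males KCNAB1 had a difference of -0.39 and KCNG1 of 0.77 with edgeR adjusted p-values of 0.401 and 0.414.

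Among females KCNAB3 and CACNA1F had the smallest p-values. KCNAB3 had 89.0, 84.0, 65.5, 108.5 and 105.4 CPM in crossbred females and 66.8, 74.5, 72.6, 75.5 and 63.7 CPM in Iberian females. Of the crossbred females, 4 of 5 lay above all Iberian females. In males it had 79.1, 75.2, 80.1, 84.5 and 82.4 CPM in crossbred and 80.5, 95.5, 80.2, 105.4 and 65.1 CPM in Iberian animals, where the crossbred values lay within the Iberian range. The log2 difference was 0.36 in females (SE 0.14, edgeR adjusted p = 0.756) and -0.09 in males, with an interaction of -0.45 (SE 0.19, edgeR adjusted p = 0.571). CACNA1F had 0.74 in females (SE 0.31, edgeR adjusted p = 0.838) and an interaction of -0.80 (edgeR adjusted p = 0.623). With a term for low-quality alignments the CACNA1F difference in females was 0.29, and 0.03 when Iberian male 5 was left out as well, while its interaction was -0.52 with the term. KCNJ10, the inward rectifier by which glia take up potassium, had -0.52 in females, and GRIA2, the subunit that makes AMPA receptors impermeable to calcium, had -0.52. The female contrast of KCNJ10 was 0.16 when a term for low-quality alignments was added. That term was estimated from the Iberian males alone, since every Iberian female and no crossbred female had the high share.

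**Figure D4:**
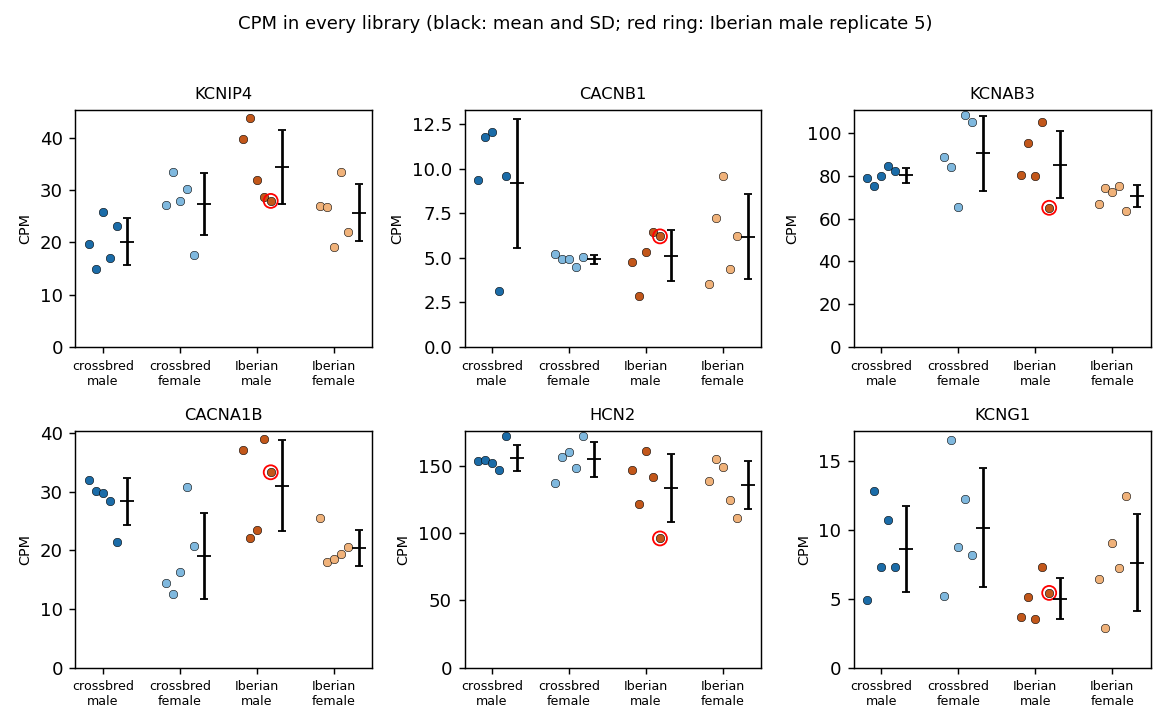
CPM of KCNIP4, CACNB1, KCNAB3, CACNA1B, HCN2 and KCNG1 in every library, by group. Points are animals, the black line and bar give the mean and SD of 5 animals, and the red ring marks Iberian male 5. Crossbred males lie below Iberian males for KCNIP4, and males lie mostly above females for CACNA1B.

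The interaction contrast, which asks whether the breed difference itself differed between males and females, gave 0 of 59 members past the threshold with edgeR and 0 with DESeq2 and limma voom. Of all genes 0.0141% passed with edgeR. At an unadjusted p under 0.05 there were 3 members (5.08%, against 8.36% of all genes), namely KCNIP4, CACNB1 and KCNAB3. The 95% interval lay within 2-fold for 29 of 59 members, and for the other 30, KCNIP4 and CACNB1 among them, it did not exclude a change of that size.

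**Figure D5:**
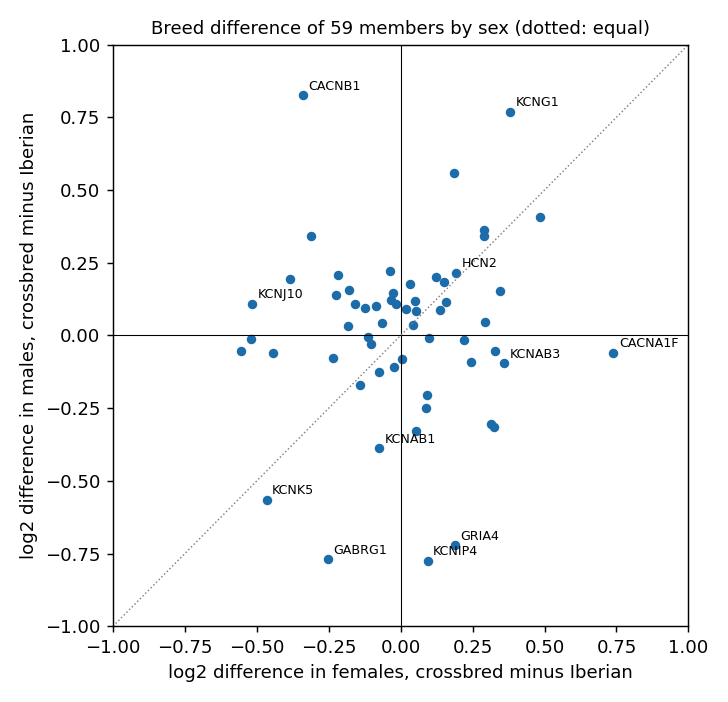
Breed difference (log2, crossbred minus Iberian) of the 59 tested members in males (vertical axis) against females (horizontal axis). Points on the dotted line have equal differences, and a selection of the genes named in the text is labelled. KCNIP4 and CACNB1 lie far from the line, at -0.77 and 0.83 in males.

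The sex comparison asked whether these genes differed between males and females. With edgeR 0 of 59 members passed, where 0.0705% of all genes did, and DESeq2 and limma voom also called 0. At an unadjusted p under 0.05 there were 2 members (3.39%, against 3.60% of all genes), the calcium channel pores CACNA1B and CACNA1A. The median log2 difference of the members was 0.02, against 0.01 over all genes, with 33 of 59 above 0 (55.9%, against 52.5%). The 95% interval lay within 2-fold for 58 of 59, all but GABRG1. Of the calcium channel pores 5 of 7 had differences above 0, and of the potassium channel auxiliary proteins 4 of 5 had differences below 0, as they did with RLE scaling and DESeq2.

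CACNA1B, the N-type pore that triggers transmitter release at many synapses, had the smallest p of the sex contrast. Crossbred males had 31.9, 30.2, 29.7, 28.5 and 21.4 CPM, and Iberian males 37.1, 22.2, 23.5, 39.0 and 33.3 CPM. Crossbred females had 14.4, 12.6, 16.4, 30.9 and 20.7 CPM, and Iberian females 25.6, 18.1, 18.6, 19.4 and 20.6 CPM. All 10 males lay above the female median, and crossbred female 4 was the highest female. Males averaged 29.7 ± 5.998 CPM and females 19.7 ± 5.32 CPM (SD, n = 10 each). The log2 difference was 0.58 (SE 0.15, 95% interval 0.27 to 0.89, edgeR adjusted p = 0.536). It was 0.56 within crossbred and 0.60 within Iberian animals, and the interaction was -0.05 (edgeR adjusted p = 0.980). Without crossbred female 4 it was 0.71 and passed (edgeR adjusted p = 0.0220). With a term for low-quality alignments it was 0.36, and the difference within Iberian animals was 0.17.

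CACNA1A averaged 83.7 ± 24.0 CPM in males and 70.2 ± 7.59 CPM in females, which is 0.24 higher on the log2 scale (SE 0.12) with an edgeR adjusted p of 0.99987. Without Iberian male 5, where it was highest, the difference was 0.13, with limma voom it was 0.12 and with the term for low-quality alignments 0.07. CACNG2, also called stargazin, which carries AMPA receptors to the synapse, averaged 4.51 ± 1.51 CPM in males and 6.02 ± 1.82 CPM in females, with all 10 males below the female median and a log2 difference of -0.43. The leak channel KCNK13, known from microglia, had 0.45, KCNG1 -0.45, the calcium channel beta subunit CACNB2 0.25, and the potassium channel KCNQ1, known from heart and inner ear, -0.30. GABRG1 had -0.52, the inward rectifier KCNJ14 0.36 and the T-type calcium channel CACNA1G 0.29. The adjusted p-value of each was 0.99987 with edgeR. KCNJ14 was 0.20 without Iberian male 2 and 0.60 with the term for low-quality alignments, and CACNA1G was 0.19 without Iberian male 1. With that term CACNB2 was 0.15 and GABRG1 -0.34.

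Within crossbred animals 0 of 59 members passed with edgeR (0.0705% of all genes), and 5 had an unadjusted p under 0.05 (8.47%, against 4.89%). CACNB1 had a male minus female difference of 0.89, CACNA1B 0.56, KCNIP4 -0.45 and the AMPA receptor subunit GRIA4 -0.78, each with an edgeR adjusted p of 0.968.

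Within Iberian animals 0 of 59 members passed with edgeR (0.0705% of all genes), and 3 had an unadjusted p under 0.05 (5.08%, against 6.95%). CACNA1B had a difference of 0.60, CACNA1A 0.39, KCNIP4 0.42 and KCNAB3 0.28, each with an edgeR adjusted p of 0.700. CACNA1A had 0.17 without Iberian male 5, 0.16 with limma voom and 0.04 with a term for low-quality alignments. DESeq2 and limma voom called 0 members within either breed. The Iberian males and females differ in their shares of low-quality alignments, as only males 2 and 3 share the high values of the females.

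Genes that work with these channels gave few calls. Of 30 tested genes for channel scaffolds and associated proteins (62 listed), 16 had breed differences above 0 and 14 below, and 0 passed. Of 10 tested genes for synthesis and transport of GABA, glycine, glutamate and acetylcholine (20 listed), 5 had differences above 0 and 5 below, and 1 passed in the breed contrast. It was SLC6A9, the glycine transporter of glia, which was higher in crossbred animals with a log2 difference of 0.42, an SE of 0.08 and an edgeR adjusted p of 0.0183. With a term for low-quality alignments the difference of SLC6A9 was 0.21 and no longer passed (edgeR adjusted p = 0.556), and without crossbred female 4 it was 0.39 (edgeR adjusted p = 0.0504). GAD1, which makes GABA, had -0.46 (edgeR adjusted p = 0.650). Of 4 tested metabotropic receptors (14 listed) 3 were above 0, and of 13 tested ion pumps and chloride transporters (16 listed) 7 were above 0, with 0 past the threshold in either list. In the sex contrast 0 of these genes passed with edgeR, and only 1, the channel partner ADAM22 at 0.55, had an unadjusted p under 0.05.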

How the data were processed

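The authors deposited 1 table of unnormalized gene counts, in which each of the 20 animals has a column. HISAT2 and HTSeq, beside FastQC, Trim Galore and DESeq2, are named with Sscrofa11.1 per the submitters' processing notes, while versions, annotation release and strand setting are not given in the sources used here. Per the labels' protocols, RNA integrity numbers were 7.8 to 9.8 and reads were paired with 76 bases. Library sizes and tests used gene rows alone, without the 5 summary lines. These held 80.2 to 88.1% of entries without a feature, 3.89 to 9.50% that were not unique, 2.73 to 5.92% of low quality, 0.548 to 0.665% not aligned and 0.0864 to 0.121% ambiguous.

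Gene symbols came from a table of pig gene names (57.4% of rows matched) and positions from RefSeq's Sscrofa11.1 table. Counts were fitted over all 20 libraries with edgeR 4.0.16 in R 4.3.3 (TMM scaling, filterByExpr with a minimum count of 10 and total of 15, robust quasi-likelihood test, 1 mean per group), and p-values were adjusted by Benjamini-Hochberg over 7090 genes. DESeq2 1.42.0, limma voom 3.58.1, other scalings and filters, a replicate block, an alignment quality term and leaving out each library were alternatives. Every limma voom fit used sample quality weights, by which libraries do not count equally. Scripts were tested on simulated data. The members and gene lists were chosen with earlier results of these data known. Genes were named as the 10 members with the smallest p for breed and for sex, the 4 smallest for each other contrast, the best counted of each class, the members around the count minimum, and those singled out after their values were seen (members extreme in Iberian male 5, and low counted or neighbouring genes). Replicate numbers were checked for pairing among same-numbered libraries only, and were not used to pair the samples in the main fit. Some members are not reported here by name. Intervals cover the spread between samples.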

Additional observations from a re-analysis of the deposited data

Results flagged for a closer look

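In 10 of the 168 combinations of group and examined member (42 genes), 1 animal lay farther from the other 4 of its group than Dixon's 95% limit for 5 samples, where chance gives about 1 in 20. Iberian male 5 accounted for 4 of them. GRIN1 had 114.7 CPM there, against 55.7 to 72.0 CPM in the other Iberian males, and GRINA 38.0 CPM, against 13.2 to 15.5 CPM. KCNK13 had 3.10 CPM, against 7.28 to 7.97 CPM, and KCNK9 0.775 CPM, against 7.94 to 10.6 CPM.

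The others were spread over 5 animals. Iberian female 1 had 9.95 CPM of CACNA1G, against 5.78 to 6.77 CPM in the other Iberian females. Iberian female 2 had 12.3 CPM of GRIA2, against 6.76 to 7.74 CPM, and 2.17 CPM of GRIN2D, against 4.98 to 5.81 CPM. Among Iberian males, replicate 4 had 6.43 CPM of GRIN2D, against 3.87 to 4.55 CPM. Crossbred female 1 had 6.35 CPM of KCNT1, a potassium channel gated by sodium, against 4.37 to 4.88 CPM. Crossbred female 5 had 8.78 CPM of KCNK3, against 14.3 to 15.0 CPM.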

How the results depend on the processing

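Across the alternatives, 1193 differences of the 23 named members and SLC6A9 were recomputed. Of these, 1185 kept their direction and their side of the threshold, 2 newly passed, 3 no longer passed and 3 reversed. None of the 23 members passed in the main fit, so keeping a side says little about keeping a size. The breed difference of GABRG1, for example, was -0.51 in the main fit and -0.03 with the alignment quality term, and counted as kept. A difference in the same direction to which DESeq2 gave no adjusted p was counted as keeping its side. The 3 that no longer passed were those of SLC6A9, with the alignment quality term (0.21), with that term and without Iberian male 5 (0.12), and without crossbred female 4 (0.39). With DESeq2, 1 member (KCNIP4) passed in the breed contrast of males, where the range of its adjusted p over all alternatives was 0.0482 to 0.485. Leaving out single libraries gave 0 to 1 members in the sex contrast, the 1 being CACNA1B without crossbred female 4. Its adjusted p ranged from 0.0220 to 0.99999. The KCNJ10 breed difference in females was 0.16 with the alignment quality term. With that term and without Iberian male 5, a setting chosen after seeing the data, the breed differences of CACNA1I and CACNA1F were -0.066 and -0.22. The cause was not tested. Leaving out single libraries gave 0 members in the other contrasts. Median member differences ranged from -0.086 to 0.045 for breed and from -0.017 to 0.036 for sex. Over all genes, 16 passed for breed, against 27 with DESeq2, 78 with no filter and 0 with the alignment quality term, and 2 passed for breed in males, against 17, 48 and, with limma voom, 10.

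With the replicate number as a block, 0 members passed in each of the 7 contrasts. Deviations from the group means correlated at -0.08 to 0.19 over 30 pairs of same-numbered libraries, 5 of them over 0.1. Differently numbered pairs were not compared, so these values cannot tell whether the numbers mark paired samples. The members' low counts, with a median sum of 273 over 20 libraries, limit what differences were detectable.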
